A study of Mus musculus with 2 samples.

Results

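Nerve sheath fibroblasts of the *Nf1*OPG mouse optic nerve are described from 2 single-cell RNA sequencing libraries, C-ON and FMC_new. Members were chosen by measured values, as cells with at least 6 UMIs (unique molecular identifiers, which count captured RNA molecules) of *Dcn*, *Col1a1* and *Col1a2* summed, no UMI of the pan-leukocyte gene *Ptprc*, and at most 1 UMI of the endothelial genes *Pecam1* and *Cldn5* summed. This selected 211 of 25652 cells, which was 67 of 8834 cells in C-ON and 144 of 16818 cells in FMC_new. The share was 0.758% of cells in C-ON (exact binomial 95% interval 0.588 to 0.962) and 0.856% in FMC_new (0.723 to 1.01), so the intervals overlapped. The study used *Nf1*flox/mut; GFAP-Cre mice on a C57BL/6 background, a model of the low-grade optic glioma of neurofibromatosis type 1, in which 1 *Nf1* allele is mutant in all cells and Cre driven by the glial *GFAP* promoter removes the other. Both libraries carry the genotype label NF1-OPG and the tissue label optic nerve, with 10 pooled mice of 12 weeks described for each, and whether the pools held separate mice is not stated. C-ON is titled a control, in a sense the labels leave undefined. The libraries therefore form a single group with no treated or wild-type arm, no statistical test was possible, and values are given for each library, with C-ON first where a pair of values is given. The selected cells are called members in the plots.

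The optic nerve is wrapped in meninges that continue those of the brain: a dural layer, an arachnoid barrier layer joined by tight contacts, and a pial layer on the nerve surface. Fibroblasts of these layers make collagens, proteoglycans and basement membrane, and barrier cells of the arachnoid carry transporters that move solutes and drugs. Fibroblasts also lie along vessels within and around the nerve. Labels of both libraries state that dura was collected apart from the nerves.

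The selected cells held 493251 UMIs in C-ON and 1103240 in FMC_new. The median per member was 7350 UMIs and 2713 genes in C-ON and 7179.5 UMIs and 2884 genes in FMC_new, with cells ranging from 1572 to 17384 and from 1671 to 19418 UMIs. The sum that chose them had a median of 20 UMIs in C-ON and 13 in FMC_new and reached 174 and 252. Among kept cells, 95.5% in C-ON and 94.6% in FMC_new had no UMI of the 3 genes. The libraries shared 188 barcodes among kept cells and 0 among the selected cells.

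**Figure D1:**
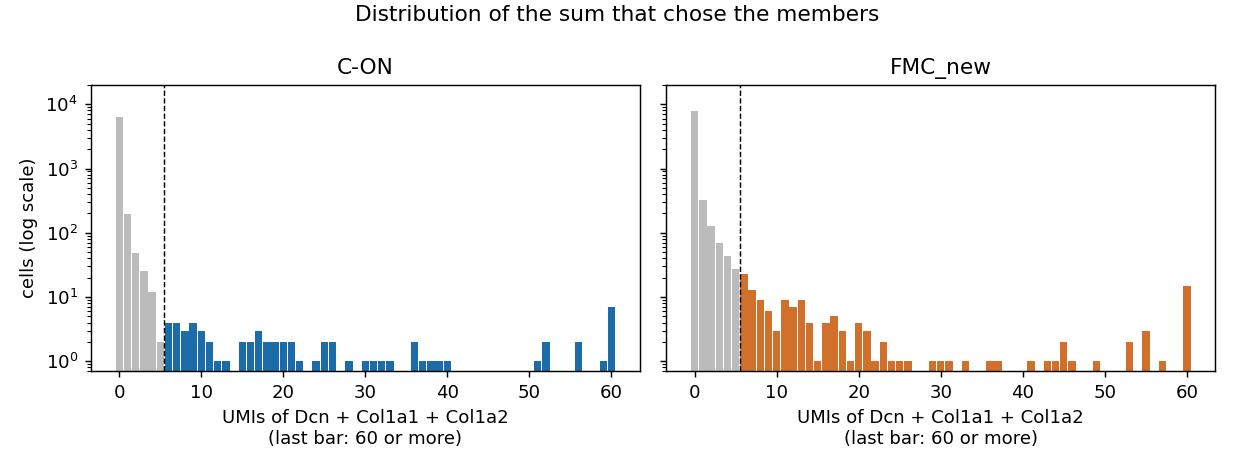
Number of cells (vertical axis, log scale) by their summed UMIs of *Dcn*, *Col1a1* and *Col1a2* (horizontal axis) in each library, among cells that met the limits on *Ptprc*, *Pecam1* and *Cldn5*. Coloured bars right of the dashed line are the 67 and 144 selected cells, and the last bar holds all cells with 60 UMIs or more. In FMC_new the bars fall smoothly across the line, with 27 cells at 5 UMIs and 23 at 6.

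The threshold cut through a continuous range in FMC_new. There, 23 selected cells had exactly 6 UMIs, against 27 cells just outside with 5 and 43 with 4. In C-ON these numbers were 4, 2 and 12. In FMC_new a UMI of the transporter gene *Slc47a1* was found in 19 of 23 cells at 6 UMIs, 17 of 27 at 5 and 16 of 43 at 4. The limit on *Ptprc* removed 3 and 20 cells with at least 6 UMIs, and that on *Pecam1* and *Cldn5* removed 0 and 1.

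A few selected cells held many UMIs of pituitary or oligodendrocyte genes. In FMC_new, 9 of 144 held over 100 UMIs of *Prl*, the pituitary hormone prolactin, with a lowest value of 350, a median of 4439 and a highest value of 14800, while no other selected cell had more than 43. All 9 had UMIs of *Pou1f1*, a pituitary transcription factor, of *Col1a2* and of *Efemp1*. None had a UMI of *Dcn*, *Col1a1*, *Lum* or *Slc47a1*. These cells held 98.6% of the *Prl* UMIs of the FMC_new members, and without them the share of selected cells in FMC_new was 0.803%, and *Slc47a1* was found in 78.5% and *Dcn* in 82.2% of those left. Separately, 7 selected cells in C-ON and 2 in FMC_new met the oligodendrocyte definition (at least 4 UMIs of *Mog* and *Mag* summed). Whether such cells are 2 cells in 1 droplet was not tested.

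For comparison, other cells were set apart by marker UMIs: T cells by at least 3 UMIs of *Cd3d*, *Cd3e* and *Cd3g* summed (996 and 3984 cells, with medians of 3852 and 3564 UMIs in C-ON and FMC_new), oligodendrocytes as above (5743 and 2442 cells, medians 7754 and 7374) and astrocytes by at least 3 UMIs of *Aqp4*, *Agt* and *Gjb6* summed (123 cells in FMC_new). Endothelial cells, mural cells and the astrocytes of C-ON numbered under 20 in a library and were not compared. Levels are CPM, the UMIs of a gene summed over a class and scaled to a class total of 1000000 UMIs, and values in brackets are exact Poisson 95% intervals. All intervals cover counting error only, not differences between animals. A gene was called higher in the selected cells when its CPM was at least 4-fold that of every compared class in both libraries. Of 8961 genes with at least 20 UMIs in the selected cells, 280 (3.12%) were called, and the median gene had a lowest fold of 0.714. Because counts of the same cells chose them, these calls are a description, and nothing is read from the 3.12%. Without the 9 cells high in *Prl*, 328 genes were called. Genes named as exceptions or as having no UMI were picked after their values were seen.

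The 3 genes of the rule lay at different loci (GRCm38): Dcn at chr10:97479609-97518143 (plus strand), Col1a1 at chr11:94936224-94953042 (plus strand) and Col1a2 at chr6:4504814-4541544 (plus strand). *Dcn*, which encodes the collagen-binding proteoglycan decorin, was at 2707 CPM (2563 to 2856) in C-ON and 2074 CPM (1989.8 to 2161) in FMC_new, and a UMI was found in 76.1% and 77.1% of selected cells. Per cell, *Dcn* ran from 0 to 161 UMIs in C-ON (median 6) and from 0 to 246 in FMC_new (median 4), so a subset of cells carried most of it. *Col1a1* and *Col1a2*, the chains of type I collagen, were found in 89.6% and 71.5% and in 89.6% and 93.1% of selected cells in C-ON and FMC_new, and their highest values in a cell were 60 and 43 UMIs in C-ON and 18 and 19 in FMC_new.

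Of 12 genes of a fibroblast identity list, none of them in the rule, 7 were found in over 50% of selected cells in both libraries. Others were in fewer cells, such as *Lum* in 32.8% and 21.5%. Of 11 tested genes of the list, 9 were called higher, with a median lowest fold of 8.92. The 6 genes described first were those found in the most cells. *Pcolce*, an enhancer of procollagen processing, was found in 91.0% and 83.3% of selected cells in C-ON and FMC_new, against 0.201% and 0.703% of T cells and 0.488% and 0.942% of oligodendrocytes. *Serpinf1*, which encodes the anti-angiogenic factor PEDF, was found in 91.0% and 79.9%, and *Fbln1*, a fibulin of elastic fibres, in 83.6% and 81.9%. *Igfbp6*, an IGF-binding protein, was at 1563 CPM (1455 to 1677) in C-ON and 1819 CPM (1740.5 to 1901) in FMC_new. *Fstl1*, a secreted glycoprotein, was at 592 CPM in C-ON and 509 CPM in FMC_new. *Col3a1*, the chain of type III collagen, was at 365 CPM (314 to 422) in C-ON and 269 CPM (239 to 302) in FMC_new and was found in 71.6% and 67.4% of selected cells. The tested exceptions on the list were *Clec3b* and *Pdgfra*, and *Col6a3* had too few UMIs to be tested. *Clec3b* was found in 1.49% and 8.33% of selected cells and *Col6a3* in 14.9% and 6.25%. *Pdgfra*, a receptor used to mark many fibroblasts, was found in 28.4% and 20.1%. It had 144 CPM in the astrocyte class of FMC_new against 53.5 CPM in the selected cells. That class also held 2047 CPM of markers of oligodendrocyte precursor (OPC) and glioma cells, and which of its cells held *Pdgfra* was not tested.

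**Figure D2:**
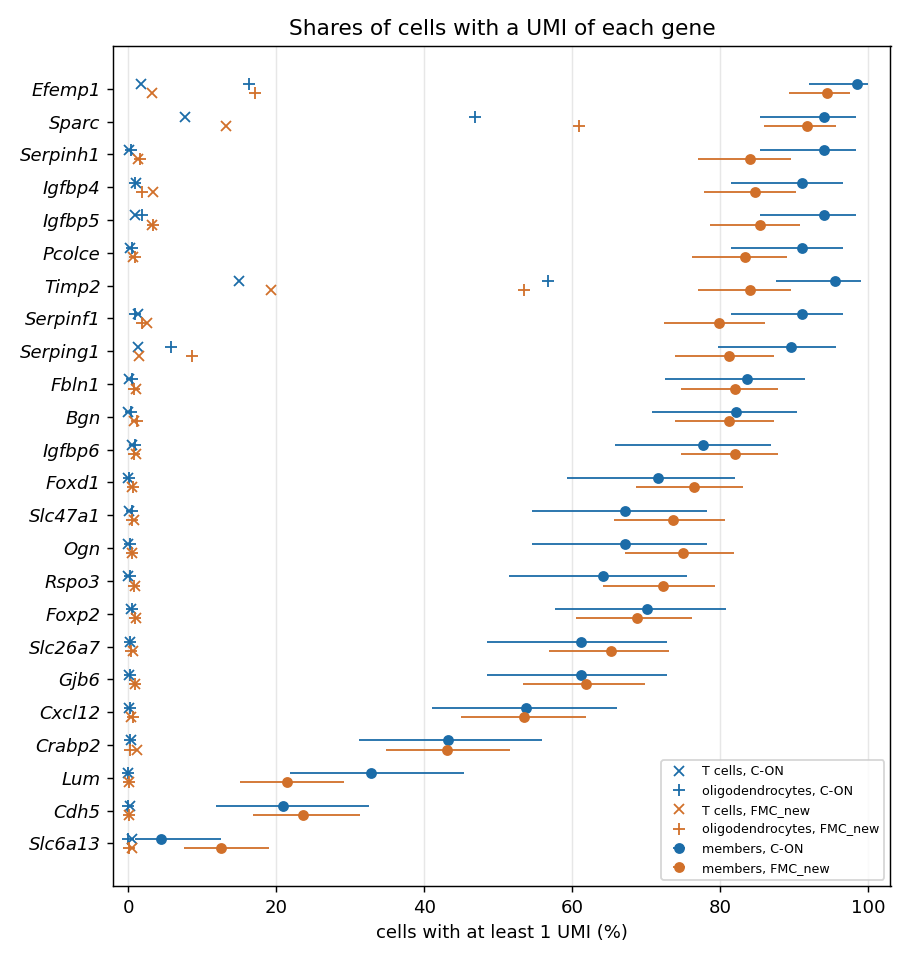
Share of cells with at least 1 UMI (horizontal axis, %) for 24 genes in selected cells (circles, with exact binomial 95% intervals), T cells (crosses) and oligodendrocytes (plus signs) of C-ON (blue) and FMC_new (orange). *Efemp1* was found in 98.5% and 94.4% of selected cells, and *Sparc*, *Timp2* and *Efemp1* were the genes with shares over 15% in another class.

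Collagen genes beyond type I differed widely in how many cells held them. Among fibrillar collagens 3 of 4 tested genes were called (median lowest fold 6.18), namely *Col3a1*, *Col5a2* and *Col5a1*, and *Col2a1* and *Col24a1* had no UMI in any selected cell, which allows up to 4.48% of cells in C-ON and 2.08% in FMC_new to yield a UMI (3 counts of the total) and sets no limit on cells that express the gene. Among fibril-associated and beaded collagens 4 of 5 tested genes were called (median lowest fold 11.0). *Col6a1* and *Col6a2*, chains of the beaded filament collagen VI, were found in 82.1% and 76.4% and in 77.6% and 73.6% of selected cells, whereas the partner chain gene *Col6a3* was low as given above. *Col12a1* and *Col14a1*, which coat collagen fibrils, were found in 55.2% and 56.9% and in 29.9% and 27.1%. *Col16a1* was found in 25.4% and 13.2% and was not called, with 7.71% and 11.2% of oligodendrocytes holding it.

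Proteoglycans, elastic fibre genes and collagen-processing enzymes were counted as separate lists. Among small leucine-rich proteoglycans 6 of 10 tested genes were called (median lowest fold 5.36). Biglycan (*Bgn*) was at 649 CPM (579.6 to 724) in C-ON and 551 CPM (508 to 597) in FMC_new, and osteoglycin (*Ogn*) was found in 67.2% and 75% of selected cells, *Prelp* in 47.8% and 47.2% and *Podn* in 37.3% and 27.1%. Among elastic fibre genes 5 of 12 tested genes were called (median lowest fold 3.10). *Efemp1*, which encodes fibulin-3, had the highest share of cells and was at 1569 CPM (1461 to 1684) in C-ON and 1382 CPM (1314 to 1453) in FMC_new. *Mfap5* and *Fbn1*, microfibril components, were found in 64.2% and 62.5% and in 40.3% and 39.6% of selected cells, and *Efemp2* and *Ltbp4* in 70.1% and 54.2% and 53.7% and 44.4%. Among collagen processing genes 3 of 13 tested genes were called (median lowest fold 2.83). *Serpinh1*, the collagen chaperone HSP47, was found in 94.0% and 84.0% of selected cells, and *Sparc* in 94.0% and 91.7%, but the astrocyte class had 1118 CPM of *Sparc* against 1079.5 CPM in the FMC_new members. *Lox*, which cross-links collagen and elastin, was at 75.0 CPM in C-ON and 68.0 CPM in FMC_new, and its lowest fold over a class was 11.8.

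Among basement membrane genes 3 of 13 tested genes were called (median lowest fold 2.51), namely *Nid1*, *Lama4* and *Hspg2*. *Nid1*, which links laminin to collagen IV, was at 184 CPM (149 to 227) in C-ON and 125 CPM (105 to 148) in FMC_new. *Lamb2* was found in 46.3% and 52.1% of selected cells, *Lama2* in 38.8% and 38.2%, *Lamc1* in 23.9% and 26.4% and *Col4a1* in 35.8% and 20.1%. *Lama2* was also found in 38.1% and 29.6% of oligodendrocytes. Among matrix proteases and their inhibitors 3 of 7 tested genes were called (median lowest fold 3.81), with *Timp2* in 95.5% and 84.0%, *Timp3* in 50.7% and 50%, *Mmp14* in 46.3% and 43.1%, *Timp1* in 35.8% and 46.5% and *Mmp2* in 31.3% and 31.2% of selected cells.

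Most selected cells held the transporter genes *Slc47a1*, *Slc26a7* and *Slc26a2*, known from the leptomeninges (the arachnoid and pia). *Slc47a1*, which encodes the drug and cation exporter MATE1, was at 616 CPM (549 to 689.6) in C-ON and 693 CPM (644 to 743) in FMC_new and was found in 67.2% and 73.6% of selected cells, against 0.100% and 0.803% of T cells and 0.470% and 0.573% of oligodendrocytes. Per cell it ran from 0 to 20 UMIs in C-ON and from 0 to 23 in FMC_new. The anion exchanger gene *Slc26a7* was at 339 CPM (289 to 394) in C-ON and 338 CPM (305 to 374) in FMC_new, and the sulfate transporter gene *Slc26a2* was found in 53.7% and 54.2% of selected cells. Among leptomeningeal transporters 6 of 7 tested genes were called (median lowest fold 6.48). *Slc6a13* and *Slc6a20a*, carriers of GABA and of proline, were found in fewer cells, the former in 4.48% and 12.5% and the latter in 5.97% and 6.25%. Among junction and barrier genes 1 of 6 tested was called (median lowest fold 2.65), which was *Slc47a1* itself. The efflux pump gene *Abcg2* was found in 62.7% and 70.1% of selected cells, the transcription factor gene *Klf5* in 38.8% and 38.2%, *Cdh1*, the epithelial cadherin, in 17.9% and 25%, and *Krt19* in 7.46% and 4.86%. *Cldn11*, a claudin of arachnoid cells and of myelin, was found in 55.2% and 51.4% of selected cells and in 99.7% and 98.7% of oligodendrocytes.

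Thinning every cell to 1000 UMIs kept all selected cells and left *Slc47a1* in 34.3% of them in C-ON and 40.3% in FMC_new, against none of the T cells of C-ON (a count of 0 allows up to 0.301% with a UMI at that depth), 0.483% of those of FMC_new and 0.122% and 0.207% of oligodendrocytes. At the same depth *Foxd1* was left in 20.9% and 27.1% of selected cells and *Igfbp5* in 80.6% and 76.4%. The astrocytes were not thinned.

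Among transcription factors of the mesenchyme 11 of 15 tested genes were called (median lowest fold 5.18). *Foxd1*, a forkhead factor of stromal progenitors, was at 282 CPM (237 to 333) in C-ON and 333 CPM (299 to 368) in FMC_new and was found in 71.6% and 76.4% of selected cells, against none of the T cells of C-ON and 0.477% of those of FMC_new. Per cell its highest value was 12 UMIs in C-ON and 16 in FMC_new, with medians of 2 and 2, so it was spread over many cells at a few UMIs each. *Foxc1* and *Foxc2*, forkhead factors needed for meningeal development, were found in 53.7% and 54.9% and in 65.7% and 58.3%, *Foxp2* in 70.1% and 68.8% and *Twist1* in 71.6% and 59.0%. *Foxp1* was found in 86.6% and 91.0% of selected cells and also in 45.3% and 43.0% of T cells, and was not called. The trunk patterning genes *Hoxa5* and *Hoxc6* had no UMI in a selected cell of either library.

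Among genes of retinoid and prostaglandin metabolism 5 of 9 tested genes were called (median lowest fold 4.35). *Crabp2*, a carrier of retinoic acid, was found in 43.3% and 43.1% of selected cells, the retinol receptor gene *Stra6* in 16.4% and 16.0%, and *Ptges* and *Ptgis*, synthases of prostaglandin E2 and prostacyclin, in 52.2% and 54.9% and 35.8% and 45.8%. *Ptgds*, the prostaglandin D2 synthase secreted by pial cells and by oligodendrocytes, was at 2086 CPM (1961 to 2218) in C-ON and 3899 CPM (3784 to 4018) in FMC_new. Its highest cell held 1410 UMIs and the median cell of each library held 1, so its level rested on a few cells. In the oligodendrocytes it was found in 65.0% and 67.2%.

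Secreted growth factors and their binding proteins summed to 9816 CPM (9542 to 10097) in C-ON and 10318 CPM (10129 to 10509) in FMC_new, and 10 of 25 tested genes were called (median lowest fold 2.19). *Igfbp5*, which binds insulin-like growth factors, was at 3572 CPM (3407 to 3743) in C-ON and 3519.6 CPM (3409.8 to 3632) in FMC_new and was found in 94.0% and 85.4% of selected cells, against 1288 CPM in the astrocyte class. Per cell it ran from 0 to 140 UMIs in C-ON (median 16) and from 0 to 140 in FMC_new (median 18), and the ranges of the libraries overlapped throughout. *Igfbp4* was at 969 CPM in C-ON and 905 CPM in FMC_new and *Igfbp2* was found in 68.7% and 47.2% of selected cells. The heparin-binding growth factors *Ptn* and *Mdk* were found in 94.0% and 87.5% and in 70.1% and 64.6%, but *Ptn* was also found in 95.1% and 85.0% of oligodendrocytes. Among Wnt and BMP modulators 2 of 6 tested genes were called (median lowest fold 3.97). *Rspo3*, an R-spondin that strengthens Wnt signalling, was at 564 CPM (499 to 634) in C-ON and 517 CPM (475 to 561) in FMC_new, and *Sfrp4*, a secreted Wnt inhibitor, was found in 49.3% and 50% of selected cells, *Dkk3* in 47.8% and 50.7% and *Sfrp1* in 35.8% and 29.2%. *Grem1*, *Sfrp5* and *Wif1* had no UMI.

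Among chemokines and cytokines 2 of 10 tested genes were called (median lowest fold 1.55), namely *Cxcl1* and *Ccl11*. Both rested on few cells, and the median cell of each library had no UMI of either. Of the 135 FMC_new members not high in *Prl*, 7 had *Cxcl1* and 6 had *Ccl11*. *Cxcl12*, the ligand of CXCR4, had the highest share of cells and was at 229 CPM (189 to 275) in C-ON and 202 CPM (176 to 230.5) in FMC_new, found in 53.7% and 53.5% of selected cells against 0.100% and 0.452% of T cells. Its lowest fold over a class fell just under the limit of 4. *Cxcl16* was found in 44.8% and 45.1%, *Il33* in 35.8% and 37.5%, *Cx3cl1* in 26.9% and 23.6% and *Csf1* in 28.4% and 18.1%, while 43.9% and 58.8% of oligodendrocytes held *Il33* and 58.1% and 60.2% of oligodendrocytes held *Csf1*. *Il6*, *Lif* and *Ccl21a* had no UMI in any selected cell. *Ccl5*, which T cells express at 3484 and 3409 CPM, was found in 1.49% and 24.3% of selected cells (95% intervals 0.0378 to 8.04 and 17.6 to 32.1). Oligodendrocytes, which should lack it, held it in 4.61% and 21.7% of cells, within those intervals, so the shares could not be told from free RNA. Among complement genes 5 of 9 tested genes were called (median lowest fold 4.39). *Serping1*, the C1 inhibitor, was at 499 CPM (438 to 565) in C-ON and 547 CPM (504 to 592) in FMC_new and restrains complement activation. *C3*, the central component, had no UMI in C-ON and 6 in FMC_new.

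Receptor genes were mostly shared with other classes, and 1 of 17 tested was called (median lowest fold 1.04), the TGF-beta co-receptor gene *Tgfbr3* (59.7% and 64.6% of selected cells). *Il11ra1* was found in 74.6% and 68.1%, *Il6st*, its signalling partner, in 62.7% and 69.4%, *Tgfbr2* in 62.7% and 56.9%, *Egfr* in 56.7% and 55.6% and *Tnfrsf1a* in 53.7% and 54.9%. Among RAS regulators and feedback genes 0 of 7 tested genes were called (median lowest fold 0.349). *Nf1* was at 44.6 CPM (28.0 to 67.5) in C-ON and 51.7 CPM (39.1 to 66.9) in FMC_new, found in 20.9% and 26.4% of selected cells and in 34.6% and 29.8% of oligodendrocytes. UMIs at the 5′ end of a transcript do not show whether an allele is intact. Among genes of universal and adventitial fibroblasts 3 of 8 tested genes were called (median lowest fold 3.32), namely *Cd34*, *Pi16* and *Sema3c*. Among immediate early and heat shock genes 0 of 11 tested genes were called (median lowest fold 0.525).

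Among contractile and scar genes 2 of 6 tested genes were called (median lowest fold 2.68), *Tagln* and *Fap*. The contractile and scar genes *Cnn1*, *Myh11* and *Lrrc15* had no UMI, *Acta2* had 19 UMIs in 1 cell of C-ON and none in FMC_new, and *Tagln* and *Myl9* were found in 20.9% and 14.6% and in 37.3% and 24.3%. Cell cycle genes were rare. *Mki67*, *Cdk1*, *Birc5*, *Ccnb1* and *Ccnb2* had no UMI, against *Mki67* in 9.04% and 9.21% of T cells, and only *Pcna*, also a repair gene, was found in over 20% of selected cells of both libraries. Interferon response genes summed to 1654 CPM (1543 to 1772) in C-ON and 1243 CPM (1178 to 1310.3) in FMC_new, where 0 of 12 tested genes were called (median lowest fold 0.415), and *Bst2* was found in 43.3% and 57.6% of selected cells and in 48.4% and 46.5% of T cells.

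Markers of other cells were checked as whole lists. Of 8 endothelial markers, *Flt1* and *Esam* had no UMI and *Cdh5*, VE-cadherin, was found in 20.9% and 23.6% of selected cells. It was the gene of that list that was called, with a lowest fold of 8.79 over classes that did not include endothelial cells. The endothelial list summed to 48.7 and 58.9 CPM in C-ON and FMC_new, against 1015 and 996 CPM in the 7 and 18 cells of their endothelial class. That class also held 55528 and 34766.5 CPM of the leukocyte list, against 9361 and 9494 CPM in T cells. It is therefore not a clean reference for endothelial levels. The mural list summed to 203 and 329 CPM in the selected cells. Of 8 mural markers, *Rgs5* and *Higd1b* had no UMI and *Vtn*, vitronectin, was found in 19.4% and 24.3%. Of 6 astrocyte markers, the connexin gene *Gjb6* was found in 61.2% and 61.8% of selected cells, while *Aqp4* had no UMI in C-ON and 1 in FMC_new, and *Gfap* was found in 1.49% and 3.47%. The astrocyte list summed to 401 and 365 CPM, most of it *Gjb6*. The astrocyte class, which *Gjb6* helped define, also held 107 CPM of *Slc47a1*, and with astrocytes defined by *Aqp4* and *Agt* alone 362 genes were called in place of 280, an alternative chosen after the data were seen. Schwann cell markers summed to 52.7 CPM (34.4 to 77.2) in C-ON and 9.97 CPM (4.98 to 17.8) in FMC_new, bone and cartilage markers to 56.8 CPM (37.7 to 82.0) in C-ON and 39.9 CPM (29.0 to 53.5) in FMC_new and melanocyte markers to 0 and 4.53 CPM. The pituitary list summed to 4.05 and 51986 CPM, and to 2.37 and 3574 CPM without the cells high in *Prl* and those that met the oligodendrocyte definition. The cells left in FMC_new still included 1 with 378 of 619 *Pomc* UMIs and 1 with 87 UMIs of *Cga*, another pituitary marker. Oligodendrocyte markers summed to 7404 CPM (7166 to 7648) in C-ON and 2301 CPM (2213 to 2393) in FMC_new. They were at 2120.0 and 2119 CPM with the same cells left out as for the pituitary list, and at 12944 and 5938 CPM in T cells. Leukocyte markers summed to 164 CPM (130.4 to 204) in C-ON and 1087 CPM (1026 to 1150.1) in FMC_new, of which *Jchain* was found in 47.8% and 97.9% of selected cells and in 43.0% and 97.0% of oligodendrocytes, which should lack it. Markers of OPC and glioma cells summed to 24.3 CPM (12.6 to 42.5) in C-ON and 109 CPM (90.2 to 130.1) in FMC_new, below the 2047 CPM of the astrocyte class. Most of the 120 UMIs of that list in FMC_new were of *Lhfpl3*. The 9 cells high in *Prl* held 41 of them, and of the other cells 5 had the gene, 1 of them with 48 UMIs.

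The 20 called genes with the largest lowest fold were ranked against T cells, oligodendrocytes and the FMC_new astrocytes only. *Igfbp7* was at 351 and 389 CPM in selected cells. It was at 488 and 370 CPM in the endothelial class, which also carried leukocyte genes as given above, and at 431 CPM in the FMC_new mural class. In the 9 cells of that mural class *Igfbp7*, *Slc6a13*, *Ifitm1*, *Lypd2* and *Prmt8* exceeded their levels in FMC_new members, while the others of the 20 lay lower. Cells of the class were allowed some UMIs of the rule genes. They held 3799 CPM of the fibroblast identity list, against 4982 CPM in FMC_new members. Whether they are mural cells was not tested. *Lum*, which encodes the proteoglycan lumican, led with 282 CPM in C-ON and 164 CPM in FMC_new and a lowest fold of at least 37.9, followed by the microfibril gene *Mfap4* (37.0), *Myoc* (34.3), which encodes myocilin, and *Col3a1* (26.6). *Shisa3*, *Cemip*, a hyaluronan-degrading factor, *Igfbp7* and *Cd34* had lowest folds of 24.2, 23.8, 22.4 and 21.8. The others were *Slc6a20a*, *Mfap5*, *Osr1*, *Prmt8*, *Bmper*, *Inmt*, *Pcolce*, *Ifitm1*, *Crispld1*, *Lypd2*, *Slc6a13* and *Dach1*, with lowest folds between 13.7 and 20.1. Where a class held fewer than 3 UMIs of a gene, 3 were used in its place, so several of these folds rest on that floor. A single cell held 60.3% of the *Lypd2* UMIs of C-ON, and 101 of 141 *Dach1* UMIs in FMC_new lay in the 9 cells with over 100 *Prl* UMIs. *Myoc* had 10 UMIs in 5 cells of C-ON, and 1 cell held 44.6% of its 204 UMIs in FMC_new. *Slc6a20a* had 7 UMIs in 4 cells of C-ON.

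The selected cells fell into 2 kinds by *Lum* and *Slc47a1*, genes at chr10:97565128-97572703 (plus strand) and chr11:61343401-61378345 (minus strand) that were chosen for this split after the values were seen. In C-ON, 18 cells had *Lum* only, 41 had *Slc47a1* only, 4 had both and 4 had neither. In FMC_new these numbers were 22, 97, 9 and 16, and the last included the 9 cells high in *Prl*. Cells with *Slc47a1* only made up 61.2% (exact binomial 95% interval 48.5 to 72.9) of selected cells in C-ON and 67.4% (59.1 to 74.9) in FMC_new, and cells with *Lum* only 26.9% (16.8 to 39.1) and 15.3% (9.83 to 22.2). Cells with *Lum* only were shallower, with median depths of 2972 and 4332 UMIs against 8927 and 7874 for *Slc47a1* only, and had a larger sum of the rule genes, with medians of 52 and 47 UMIs against 15 and 12. With each cell thinned to 1000 UMIs, 14 and 22 cells had *Lum* only, 22 and 62 had *Slc47a1* only 31 and 60 had neither and none had both. Thinning by itself makes cells with both genes rarer.

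**Figure D3:**
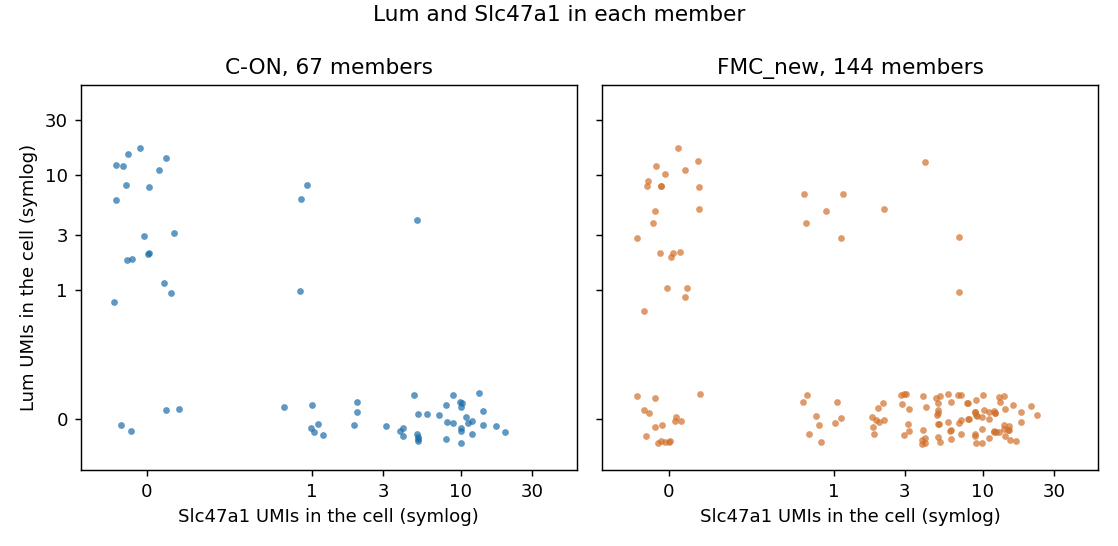
UMIs of *Lum* (vertical axis) against UMIs of *Slc47a1* (horizontal axis) in each selected cell of C-ON and FMC_new, on symlog axes with a small random shift so that points do not overlap. Cells lie along the axes, and 4 and 9 cells hold both genes.

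Across all genes, 181 of 8148 tested (2.22%) were at least 4-fold higher in cells with *Lum* only than in cells with *Slc47a1* only in both libraries, and 78 (0.957%) were at least 4-fold higher in the latter. The *Lum* cells summed to 78817 and 118505 UMIs, against 361859 and 786357 UMIs for the *Slc47a1* cells. The floor of 3 UMIs therefore stood for a higher CPM in the *Lum* cells, and genes absent there were harder to call on the *Slc47a1* side. The counts of the 2 sides, here and by list below, are thus not on equal terms. The genes named here were chosen after their values were seen, and no test applies to a split made from the same cells. *Dcn*, which as a gene of the rule was left out of these counts, was at 11051 CPM (10329 to 11809.9) against 707 CPM (623 to 799.6) in C-ON and 9907 CPM (9348 to 10490.1) against 822 CPM (759 to 887) in FMC_new. On the same side *Pdgfra* was at 495 CPM (352 to 676) against 35.9 CPM (19.1 to 61.4) in C-ON and 354 CPM (255 to 479) against 8.90 CPM (3.58 to 18.3) in FMC_new. By *Pdgfra*, a gene outside the rule, the name fibroblast fits the cells with *Slc47a1* only, the larger share, less well. *Dcn* helped to choose the cells, and the *Lum* cells had larger sums of the rule genes, so its difference is not used for the name. The fibroblast identity list as a whole summed to 5608 against 5472 CPM in C-ON and 5164 against 5570 CPM in FMC_new. The laminin gene *Lama2* was at 482 against 38.7 CPM in C-ON and 422 against 39.4 CPM in FMC_new, the metalloproteinase inhibitor gene *Timp3* at 2043 against 66.3 CPM in C-ON and 1713 against 111 CPM in FMC_new, and the basement membrane collagens *Col4a5* and *Col15a1* had no UMI in the *Slc47a1* cells of C-ON, against 152 and 178 CPM in its *Lum* cells. Of 12 tested basement membrane genes, 5 were called on the *Lum* side and none on the other. Of 9 complement genes tested 4 were called on the *Lum* side (among them *C1ra*, *C1s1* and *C7*), and of 10 chemokines and cytokines 5 (*Cxcl1*, *Cxcl12*, *Ccl2*, *Ccl11* and *Il34*). *Cxcl12* was at 723 CPM (548 to 937) against 119 CPM (86.0 to 160.1) in C-ON and 700.4 CPM (558 to 868) against 159 CPM (132 to 189) in FMC_new.

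Immediate early genes, known to respond quickly to stimulation and to tissue dissociation, were also on the *Lum* side. Of 11 genes on that list 8 were called there, and none on the other side. The list summed to 15644 against 1293 CPM in C-ON and 14514 against 1689 CPM in FMC_new. *Fos* was at 3984 CPM (3555 to 4449.8) against 323 CPM (267 to 388) in C-ON and 3907 CPM (3559 to 4279.6) against 478 CPM (431 to 529) in FMC_new and *Jun* at 3134 against 182 CPM in C-ON and 1569.5 against 248 CPM in FMC_new. The solute carriers *Slc6a13* and *Slc6a20a* lay on this side too, with *Ptgds* and *Vtn*. *Ptgds* was at 10911 CPM (10194 to 11666) against 434 CPM (369 to 507) in C-ON and 30227 CPM (29245 to 31233) against 867 CPM (803 to 935) in FMC_new, *Vtn* at 761 against 24.9 CPM in C-ON and 2371 against 61.0 CPM in FMC_new, and *Slc6a13* at 152 against 0 CPM in C-ON and 481 against 10.2 CPM in FMC_new. Of the cells with *Slc6a20a*, 2 of 4 in C-ON and 8 of 9 in FMC_new also had *Slc6a13*.

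On the *Slc47a1* side were called 2 of 6 tested transporters (*Slc26a2* and *Slc26a7*), against 4 on the *Lum* side, 3 of 5 Wnt and BMP modulators and, of 5 fibril-associated and beaded collagens, *Col6a2*. *Slc26a7* had no UMI in a cell with *Lum* only and was at 426 and 464 CPM in the *Slc47a1* cells of C-ON and FMC_new, and 40 of 41 and 93 of 94 cells with *Slc26a7* also had *Slc47a1*. Given as *Lum* cells against *Slc47a1* cells, *Rspo3* was at 12.7 against 729.6 CPM in C-ON and 25.3 against 683 CPM in FMC_new, *Sfrp4* at 63.4 against 332 CPM in C-ON and 16.9 against 477 CPM in FMC_new and *Dkk3* at 25.4 against 224 CPM in C-ON and 16.9 against 168 CPM in FMC_new. *Col6a2* was at 203 CPM (116 to 329.7) against 873 CPM (779.6 to 975) in C-ON and 118 CPM (64.6 to 198) against 802 CPM (741 to 868) in FMC_new. *Abcg2* was at 25.4 against 392 CPM in C-ON and 84.4 against 383 CPM in FMC_new, *Anxa3* at 50.8 against 409 CPM in C-ON and 16.9 against 495 CPM in FMC_new and *Igfbp6* at 292 against 1907 CPM in C-ON and 557 against 2229 CPM in FMC_new. *Cdh1*, which was not called, had no UMI in the *Lum* cells of C-ON and 1 in those of FMC_new, against 60.8 and 77.6 CPM in the *Slc47a1* cells. *Foxd1*, *Foxc1* and *Efemp1* were on both sides, with *Foxd1* at 178 against 271 CPM in C-ON and 287 against 397 CPM in FMC_new, *Foxc1* at 102 against 141 CPM in C-ON and 169 against 158 CPM in FMC_new and *Efemp1* at 1446 against 1559 CPM in C-ON and 1949 against 1485 CPM in FMC_new. In C-ON 3 of 18 *Lum* cells and 3 of 41 *Slc47a1* cells met the oligodendrocyte definition. Markers of other cells moved with the split. The oligodendrocyte list was at 18448 against 4955 CPM in C-ON and 4084 against 1765 CPM in FMC_new, the leukocyte list at 266 against 111 CPM in C-ON and 1958 against 978 CPM in FMC_new, and the pituitary list in FMC_new at 7671 against 2808 CPM. Their part in the counts on the *Lum* side was not tested beyond leaving out the cells that met the oligodendrocyte definition. Without those cells 157 genes were called on the *Lum* side and 58 on the other, of which 135 and 52 were among the 181 and 78.

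**Figure D4:**
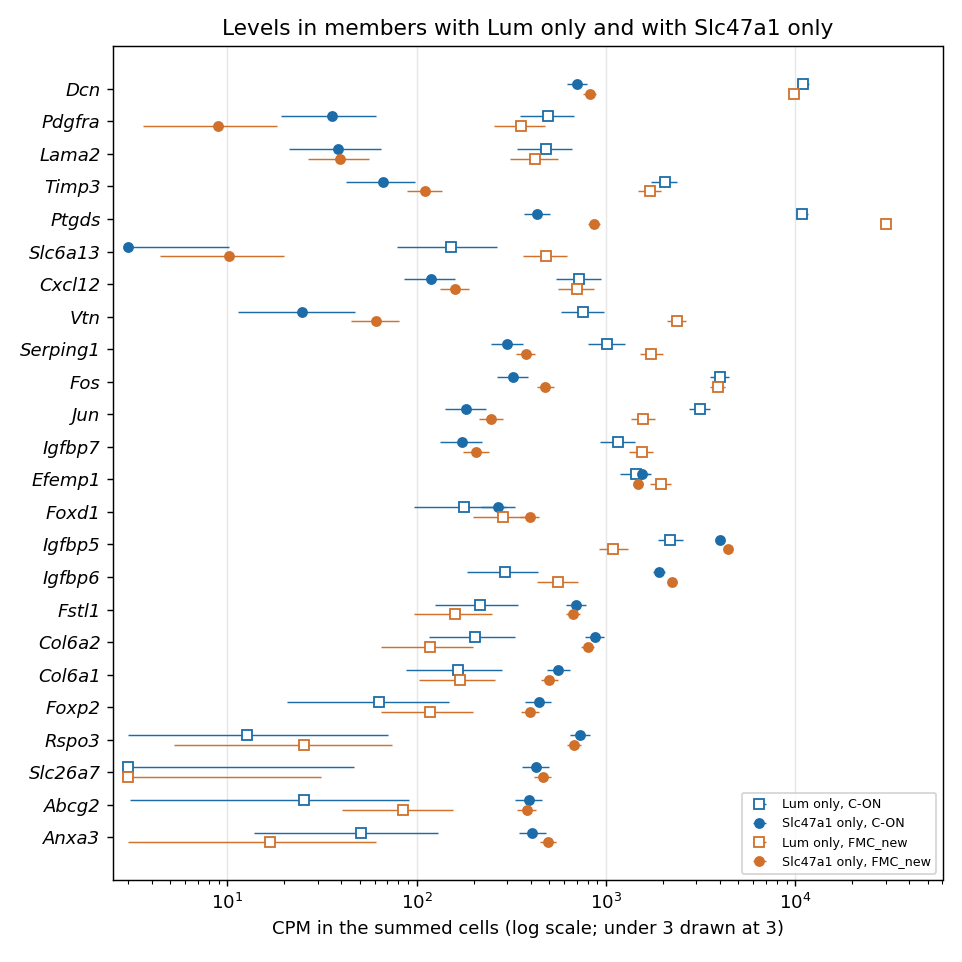
Levels (CPM, log scale, values under 3 drawn at 3) of 24 genes in the summed cells with *Lum* only (open squares) and with *Slc47a1* only (filled circles) of C-ON (blue) and FMC_new (orange), with exact Poisson 95% intervals. *Dcn*, *Pdgfra*, *Fos* and *Ptgds* lie higher in the *Lum* cells, *Rspo3* and *Slc26a7* in the *Slc47a1* cells, and *Efemp1* and *Foxd1* are near each other in both.

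The libraries were compared within the selected cells with 1 library on each side, so no test applies. A gene was called when its CPM differed at least 4-fold and its Poisson intervals did not overlap. Of 8961 genes, 171 (1.91%) were higher in FMC_new and 107 (1.19%) in C-ON. Of the lists that describe the selected cells, 1 of 11 fibroblast identity genes (*Clec3b*) and 2 of 7 transporters (*Slc6a20a* and *Slc13a4*) were called higher in FMC_new, and none of the genes tested on the collagen and mesenchymal transcription factor lists was called. Most of the genes furthest apart are known from pituitary, antibody-secreting or oligodendrocyte cells. *Prl* had no UMI in the C-ON members and 46758 CPM in those of FMC_new, against 2835 CPM in FMC_new T cells, and was at 713 CPM without the 9 cells named above. *Gh*, growth hormone, had no UMI in C-ON and was found in 100% of FMC_new members and 99.9% of FMC_new T cells. *Nrg1*, with no UMI in C-ON and 311 CPM in FMC_new, was at 17.4 CPM without them, and *Chgb*, at 967 CPM with them, was at 12.3 CPM. The other leading genes of FMC_new were *Pomc*, *Fam155a* and the immunoglobulin genes *Igkv5-43*, *Igkv3-2*, *Igkv1-110* and *Igkv6-17*, whose T cell levels in FMC_new ran from 2123 to 2990.4 CPM. In C-ON the leading genes were *Nkain2*, *Gjb1*, *Plekhh1*, *Gjc3*, *Ugt8a*, *Wscd1*, *Sgk1*, *Gpr37*, *A230001M10Rik* and *Igkv8-19*, of which *Igkv8-19* was at 7217 CPM in the T cells of C-ON and the others at 209 CPM or more in the oligodendrocytes of C-ON.

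**Figure D5:**
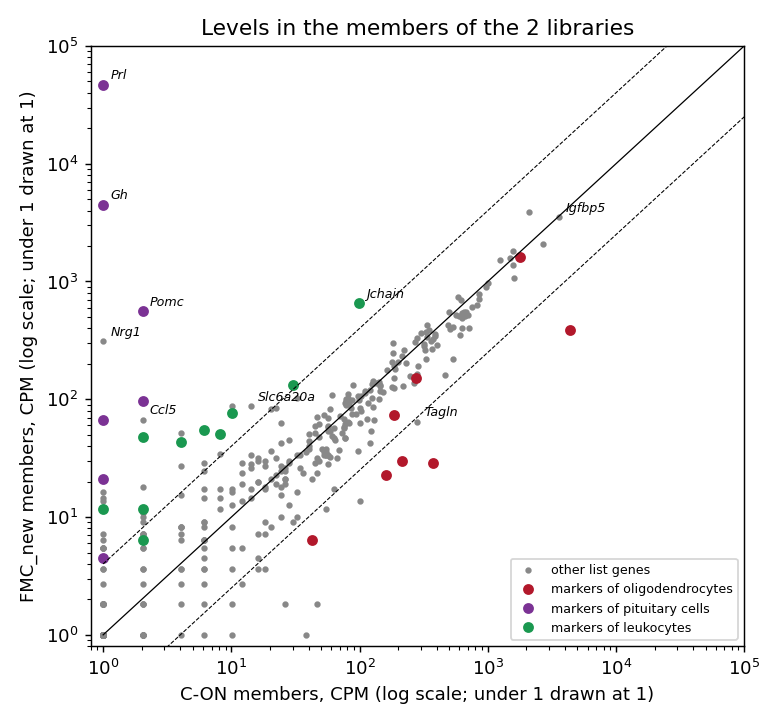
Level of each list gene (grey, with pituitary markers purple, leukocyte markers green and oligodendrocyte markers red) in the selected cells of FMC_new (vertical axis) against C-ON (horizontal axis), in CPM on log scales with values under 1 drawn at 1. The solid line marks equal levels and the dashed lines a 4-fold difference. Most genes lie between the dashed lines, while *Prl*, *Gh* and *Jchain* lie above and the oligodendrocyte markers lie below the solid line.

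Without the cells that carried over 100 *Prl* UMIs or at least 4 UMIs of *Mog* and *Mag*, 60 and 133 cells remained, 95 genes were called higher in FMC_new and 7 in C-ON. Of these, 84 and 7 were among the genes called on all selected cells. 27 of the 95 and 1 of the 7 were immunoglobulin genes. In a different subset, leaving out genes at least 2-fold apart in the same direction in T cells, 48 genes remained higher in FMC_new and 20 in C-ON. The following values, on the cells that remained, were picked after they were seen. *Myoc* was at 9.47 CPM (4 UMIs in 3 cells) in C-ON and 205 CPM (198 UMIs in 13 cells) in FMC_new, and *Apod*, a lipid carrier, at 1440.2 CPM (608 UMIs in 41 cells) in C-ON and 6535 CPM (6298 UMIs in 82 cells) in FMC_new. *Slc6a20a* was at 16.6 CPM (7 UMIs in 4 cells) in C-ON and 99.6 CPM (96 UMIs in 9 cells) in FMC_new and *Penk* at 18.9 CPM (8 UMIs in 4 cells) in C-ON and 92.3 CPM (89 UMIs in 15 cells) in FMC_new. *Apod* was called only on these remaining cells and not on all selected cells, and *Myoc*, *Slc6a20a* and *Penk* rested on few cells. In the other direction *Tagln*, an actin-binding protein of contractile cells, was at 325 CPM (137 UMIs in 13 cells) in C-ON and 73.7 CPM (71 UMIs in 21 cells) in FMC_new, and *Ccl2*, a monocyte-attracting chemokine, at 116 CPM (49 UMIs in 2 cells) in C-ON and 13.5 CPM (13 UMIs in 6 cells) in FMC_new. A single cell held 48 of the 49 *Ccl2* UMIs of C-ON. With a single library on each side, differences between the pools of mice, dissections and runs cannot be told apart.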

How the data were processed

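Optic nerves, dissociated and depleted of debris and myelin, were profiled with the 10x Genomics 5′ v2 kit. The authors deposited raw UMI counts per gene and called cell, made with Cell Ranger 7.2.0 (file headers) on mm10 (submitters' processing notes, which also list Seurat 5.2.1), without normalization. Barcodes with 500 to 5000 genes, 500 to 20000 UMIs and at most 5% mitochondrial UMIs were kept. Median depth was 6810.5 UMIs in C-ON and 4676 in FMC_new. No doublet caller was run. Members and the 33 gene lists were chosen with earlier results of these data known. UMIs were summed over cells per library and class, scaled to CPM, and given with exact Poisson or Clopper-Pearson 95% intervals. Genes named from a list were up to 6 with the highest share of selected cells, besides the genes of the rule, the 20 genes of largest lowest fold, the 10 furthest apart in each direction between libraries, *Gh* and *Prl*. Genes named as exceptions, at 0 or in the split were picked after their values were seen. A UMI floor of 3 replaced lower values in folds, and calls were tested on simulated data. *Ctgf* is absent under that symbol, and some genes are not reported here. Coordinates are from GENCODE M21 (GRCm38). Python 3.11.15, numpy 2.4.6, scipy 1.17.1 and pandas 2.3.3 were used.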

Additional observations from a re-analysis of the deposited data

Results flagged for a closer look

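Barcodes outside the quality limits also met the rule on marker UMIs, in data that the comparisons did not use. There were 41 such barcodes among 2011 in C-ON (2.04%) and 93 among 4523 in FMC_new (2.06%). In C-ON 32 of them had over 5% mitochondrial UMIs and 12 had over 20000 UMIs. In FMC_new these numbers were 26 and 57. *Slc47a1* was found in 34 of the barcodes of C-ON and 38 of those of FMC_new, and *Lum* in 0 and 7.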

How the results depend on the processing

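The share of selected cells over both libraries was 0.823%. It was 1.52% at 3 UMIs, 0.565% at 10 UMIs, 1.38% at 6 UMIs per 10000, 0.992% with a 10% mitochondrial limit, 1.05% with no upper limits, 0.912% with no exclusion and 0.748% without cells with at least 4 UMIs of *Rgs5*, *Kcnj8* and *Vtn*. Leaving out a library gave 0.758% to 0.856%. The count of genes higher than in every class was 643 at 2-fold and 78 at 8-fold, and 310 to 596 with a single library, the larger without FMC_new, where astrocytes are not compared. The count of genes apart between the libraries (278 in all) was 551 at 2-fold, 111 at 8-fold, 128 at 50 UMIs, 68 without genes that move alike in T cells and 102 without cells carrying pituitary or oligodendrocyte genes, a setting added after the data were seen. Of 198 list levels over 6 alternatives, 19 moved by over 1.5 times, among them the retinoid and prostaglandin list, at 5421 CPM and at 2721 CPM without cells high in *Vtn*. No paired analysis was possible because both libraries belong to a single group and no test was run. Depth limits calls to genes with at least 20 UMIs in 211 cells.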

Other observations

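The rule left out cells that carried the same leptomeningeal genes. Cells with at least 6 UMIs of *Slc47a1*, *Foxd1*, *Foxp2*, *Slc26a7* and *Rspo3* summed, a set chosen after the values were seen, numbered 70 in C-ON and 250 in FMC_new. Of these 43 and 101 were selected and 27 and 149 were not. Among those not selected 26 and 135 had fewer than 6 UMIs of the rule genes, and 5 and 16 had none. Their median depth was 5482 and 6266 UMIs, against 8967 and 7633 UMIs in the selected cells with that sum. Conversely 10 and 16 selected cells had no UMI of these 5 genes.

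Within each library the levels of gene pairs across selected cells were described by Pearson's r of log-transformed UMIs per 10000, with no p, since the cells of a library share its depth and free RNA. For *Slc47a1* and *Slc26a7* r was 0.74 over 67 cells of C-ON and 0.66 over 144 cells of FMC_new. For *Lum* and *Pdgfra* it was 0.44 and 0.70, and for *Lum* and *Slc47a1* -0.64 and -0.50.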
